A study of Mus musculus with 27 samples.

Results

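The genes described here encode 9 proteins that bind AU-rich or U-rich stretches of mRNA: Elavl1, Zfp36, Zfp36l1, Zfp36l2, Khsrp, Tia1, Tial1, Hnrnpd and Celf1. They were chosen by name for this known activity, and they are 9 of the 55483 genes in the table of counts. All 9 passed the filter on low counts in every fit. AU-rich elements are stretches in the 3′ untranslated region (3′ UTR) of short-lived mRNAs, among them mRNAs of cytokines, and the proteins bound there set how long the mRNA lasts and how often it is translated. HuR, the protein encoded by Elavl1, is best known for stabilising such mRNAs, while ZFP36 (tristetraprolin), ZFP36L1, ZFP36L2, KSRP (encoded by Khsrp) and CELF1 recruit decay enzymes. TIA1 and TIAR (encoded by Tial1) repress translation and gather in stress granules, and AUF1 (encoded by Hnrnpd) has been tied to both decay and stability. In macrophages, ZFP36 is known as a brake on the mRNAs of inflammatory cytokines.

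All groups share 1 mouse macrophage line, RAW264.7. Cells were kept for 6 hours in the solvent DMSO, in lipopolysaccharide (LPS) with DMSO, or in LPS with TM7nox. LPS, a bacterial cell wall component that activates macrophages, was at a dose of 1 µg/ml. TM7nox, a tanshinone mimic, was at 10 µM. The groups called LPS below are labelled LPS+DMSO. Tanshinone mimics are small molecules known to interfere with the binding of HuR to RNA. Each treatment has 4 libraries of total RNA, 4 of RNA recovered with an anti-HuR antibody (RNA immunoprecipitation, RIP) and 1 of RNA recovered with control IgG. The labels give replicate numbers 1 to 4 and do not say whether these were separate cultures, so the p-values measure the spread between these samples, which may be technical.

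Total RNA libraries held 2.73 to 28.3 M counts, RIP libraries 19.8 to 41.4 M and IgG libraries 8.87 to 24.5 M. The shallowest, with 2.73 M, was replicate 1 of RNA from DMSO. No member had fewer than 77 counts in any library. The 8 macrophage markers listed were all present in RNA, with summed levels of 5188 to 6429 CPM (counts scaled to a common library size) in DMSO, 4586 to 6599 with LPS and 3168 to 6021 with LPS+TM7nox. Fibroblast and epithelial markers summed to at most 0.385 CPM. Of 4 T cell markers, Lck was at 1.32 to 4.03 CPM in DMSO, 7.41 to 8.95 with LPS and 9.04 to 12.3 with LPS+TM7nox, and the other 3 were under 1 CPM on average. Of 4 B cell markers, Pax5 was at 0 CPM in DMSO and at 1.43 to 4.27 in both LPS treatments, and the other 3 were under 1 CPM on average. Whether these cell type markers bear on any result below was not tested.

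Elavl1, Zfp36, Zfp36l1 and Hnrnpd are shown first by the densest stretch of AU-rich pentamers in their own 3′ UTRs, since their mRNAs can themselves be bound by proteins of this kind. Each line gives the 30 bases of the annotated 3′ UTR with the most matches to ATTTA (GRCm39, minus strand, written as DNA in the direction of the mRNA), with the matches in capitals. The positions are chr8:4335777-4335806 for Elavl1, chr7:28076381-28076410 for Zfp36, chr12:80154598-80154627 for Zfp36l1 and chr5:100109287-100109316 for Hnrnpd.
Elavl1: ttATTTATTTATTTATTTAtttttATTTAt
Zfp36: tttATTTAtgacgactttATTTAttgtatt
Zfp36l1: tatttctctttctttgtgtgaATTTATTTA
Hnrnpd: cATTTAatgttatatacagtATTTAcatgt
The Elavl1 window holds 5 pentamers, the first 4 of them overlapping, against 2 in each of the other three. Over its whole 3′ UTR of 7024 bases, Elavl1 has 20 matches to ATTTA and 8 to the longer TTATTTATT, which contains ATTTA. Zfp36 has 3 and 1 in 774 bases, and Hnrnpd has 17 and 0 in 6093 bases. Among 10980 coding genes tested, 73.5% had an ATTTA, 9.24% a TTATTTATT and 47.9% a TTTTTTT in the 3′ UTR, with a median of 2 ATTTA. Matches were sought on the mRNA strand only, and overlapping matches were each counted.

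The richest U stretches of the same transcripts are shown because HuR is known for U-rich sites. Each line gives the 30 bases of the 3′ UTR with the most T, with runs of at least 5 T in capitals. They lie at chr8:4339541-4339570 (minus strand) for Elavl1, chr17:57328323-57328352 (minus) for Khsrp, chr2:90847078-90847107 (plus) for Celf1, chr7:128043066-128043095 (minus) for Tial1 and chr5:100106962-100106991 (minus) for Hnrnpd.
Elavl1: TTTTTTTTTTccttttcTTTTTTcTTTTTT
Khsrp: TTTTTTcTTTTTcTTTTTTTTTTTTTTTTT
Celf1: TTTTTTcTTTTTTctttcTTTTTTTTTTTT
Tial1: agTTTTTTTTTTgTTTTTTTTTgTTTTTTT
Hnrnpd: TTTTTatggttttggtttgTTTTTTgttgt
The Khsrp window has 28 T among its 30 bases, and the longest uninterrupted run in its 3′ UTR is 18 T. The richest windows of Zfp36l2, Zfp36l1, Hnrnpd and Tia1 have 25, 24, 22 and 19 T. The richest Zfp36 window has 18 T and is the AU-rich window printed above. The longest run is 19 T in Tial1, 13 in Hnrnpd, 12 in Celf1 and 10 in Elavl1 and Zfp36l1. It is 9 T in Zfp36l2, 8 in Tia1 and 6 in Zfp36. Counted as overlapping matches to TTTTTTT, Tial1 has 27, Khsrp 22, Elavl1 17, Celf1 11, Hnrnpd 10, Zfp36l1 8, Zfp36l2 5, Tia1 3 and Zfp36 0. These counts describe the annotated canonical transcripts, and which 3′ UTR the cells used was not measured.

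In total RNA from DMSO, Khsrp was the most abundant of the 9 per length of transcript, and the order changed with LPS. On the scale of CPM per kb, Khsrp was at 51.8 ± 2.28 and Zfp36l2 at 21.9 ± 3.67 (SD, n = 4). Then followed Hnrnpd at 12.4 ± 1.23, Zfp36 at 11.8 ± 5.54, Elavl1 at 10.5 ± 2.14, Tial1 at 9.78 ± 0.573 and Celf1 at 8.34 ± 0.789. From Hnrnpd to Tial1, each neighbour differed from the next by less than the larger of their SDs, while Tial1 and Celf1 differed by more than either SD. Zfp36l1, at 5.23 ± 1.54, and Tia1, at 3.60 ± 0.455, were lowest. In LPS, Zfp36 led with 277 ± 39.4 CPM per kb, ahead of Khsrp at 41.5 ± 2.62, and in LPS+TM7nox it led with 164 ± 12 against 39.0 ± 4.2. Tia1 was lowest in LPS at 2.63 ± 0.27. In LPS+TM7nox, Zfp36l1 at 1.97 ± 0.632 and Tia1 at 2.28 ± 0.0974 differed by less than the SD of Zfp36l1.

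**Figure D1:**
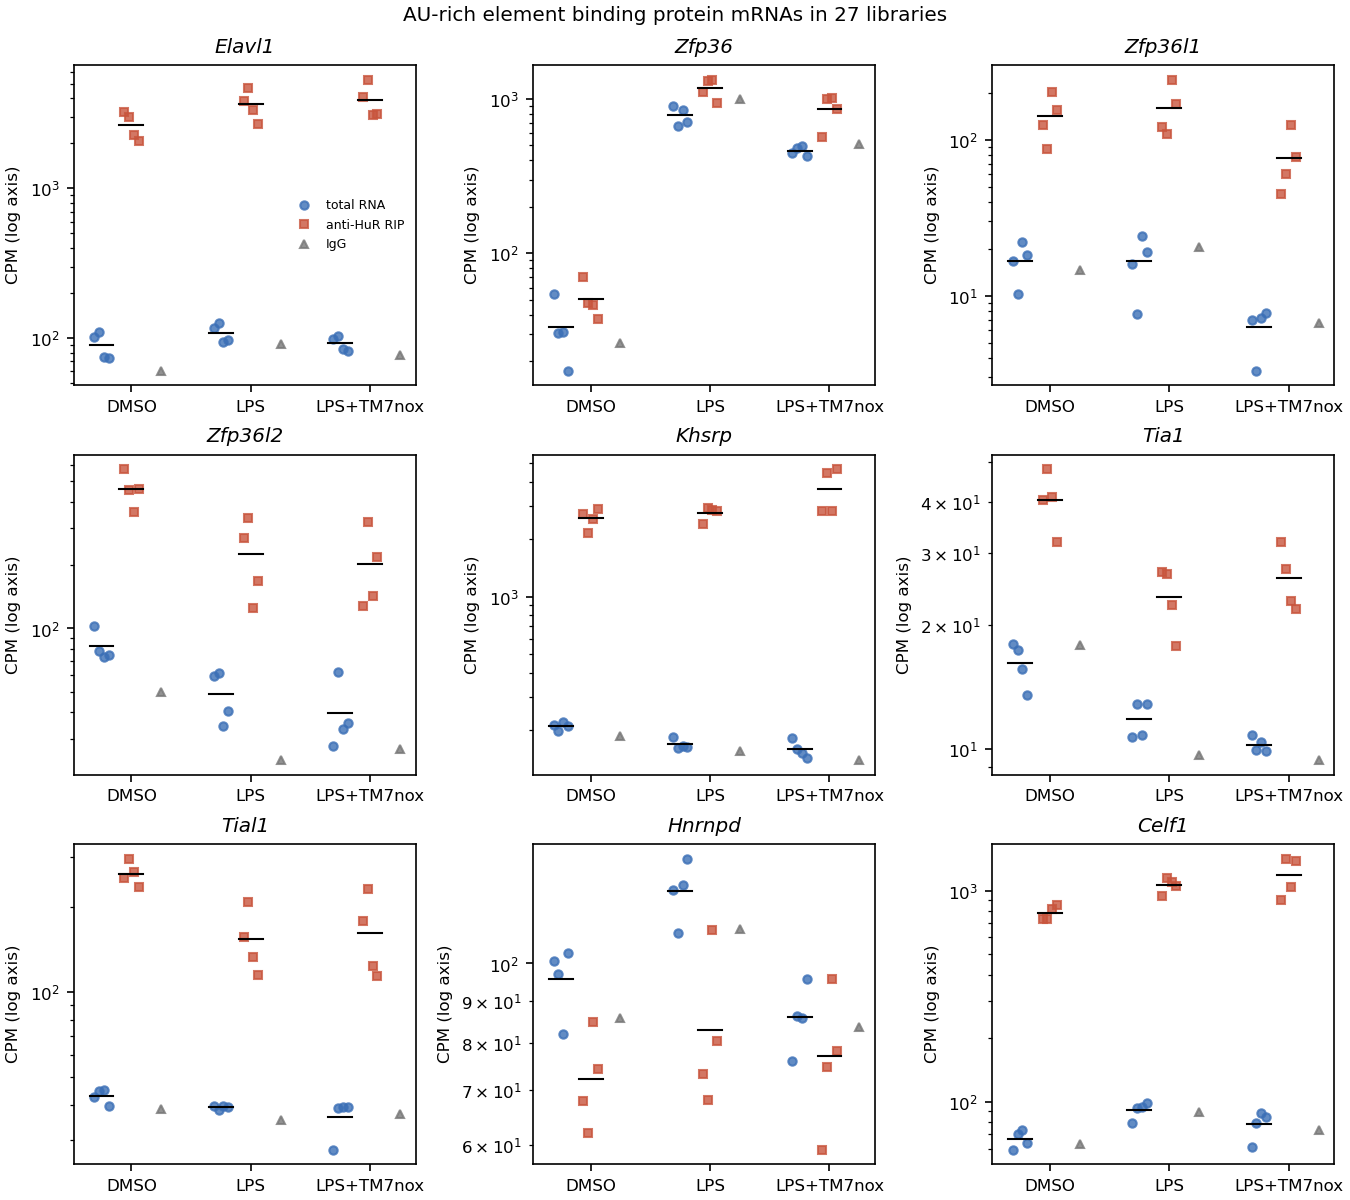
Level of each of the 9 mRNAs in every library, in CPM on a log axis that differs between panels, by treatment. Points are libraries (blue circles total RNA, red squares anti-HuR RIP, grey triangles IgG), horizontal lines are means of 4 libraries, and Zfp36 in RNA lies at 17.4 to 54.9 CPM in DMSO and at 670 to 898 CPM in LPS.

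Of the 9 mRNAs, 3 rose and 3 fell with LPS in total RNA, and Zfp36 moved by far the most. Zfp36 (23.2-fold), Celf1 (1.34-fold) and Hnrnpd (1.25-fold) rose, while Zfp36l2 (1.72-fold), Tia1 (1.39-fold) and Khsrp (1.28-fold) fell. A gene was called at an FDR under 0.05, which is the Benjamini-Hochberg adjusted p of edgeR's quasi-likelihood test over all genes tested. By this rule 20.2% of all genes tested rose and 21.7% fell, beside 3 of the 9 members in each direction. With TM7nox added to LPS, 2 members fell and none rose: Zfp36l1 (2.64-fold) and Hnrnpd (1.42-fold). In that fit, 7.37% of all genes rose and 6.4% fell. With the replicate number as a block, 4 members fell, adding Elavl1 and Zfp36. The block fit called 1526 of all 12369 genes higher and 1565 lower. Between LPS+TM7nox and DMSO, which shares its groups with the other 2 comparisons, Zfp36 was higher and Zfp36l1, Zfp36l2, Khsrp and Tia1 were lower, beside 23.7% of genes higher and 23.6% lower.

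Elavl1 (ENSMUSG00000040028, chr8:4332576-4375489, minus strand) encodes HuR, the protein the antibody recovers. Its RNA level was 102, 109.8, 74.8 and 74.1 CPM in DMSO replicates 1 to 4, then 117, 127, 93.7 and 97.6 in LPS, and 98.4, 103, 85.3 and 81.4 in LPS+TM7nox. Replicates 1 and 2 were higher than replicates 3 and 4 in each treatment, and the groups overlapped. The log2 fold change was 0.24 ± 0.16 (SE) for LPS against DMSO, with an FDR of 0.255 from edgeR's test. It was higher in LPS in 4 of 4 same-numbered pairs. With the replicate number as a block in the same edgeR test, the log2 fold change was 0.25 with an FDR of 0.016. With library sizes alone as the scaling it was −0.05, where the median of all genes was −0.32. TM7nox with LPS against LPS gave −0.24 ± 0.16, with an edgeR FDR of 0.384, and 0.044 with the block. Both differences were smaller than the range between replicates. Exons of Elavl1 overlap Ccl25 on the other strand, and since the strand setting of the counting is not known, reads of the overlap could belong to either gene. Reep3, Cers2 and S100a10 had the RNA profiles most like that of Elavl1, with Pearson r of 0.929, 0.912 and 0.91 over the 12 RNA libraries, among 8621 genes ranked.

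In anti-HuR RIP, Elavl1 mRNA itself stood far above its RNA level, at 3244, 2989, 2262 and 2082 CPM in DMSO, 3828, 4699, 3348 and 2678 in LPS, and 4069, 5314, 3104 and 3122 in LPS+TM7nox. The 3 IgG libraries had 60.7, 90.8 and 77.5 CPM, close to the levels in RNA. The RIP groups overlapped. LPS against DMSO in RIP gave a log2 fold change of 0.44 ± 0.24 with an edgeR FDR of 0.155, and 0.02 with the replicate block. LPS+TM7nox against LPS gave 0.06 ± 0.24, with an edgeR FDR of 0.906. LPS+TM7nox against DMSO gave 0.49 ± 0.24, with an edgeR FDR of 0.106, and 0.01 with the block. With library sizes alone, the differences from DMSO were −0.20 for LPS and −0.16 for LPS+TM7nox, where the median of all genes was −0.63 in both.

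Zfp36 (ENSMUSG00000044786, chr7:28076209-28079710, minus strand) encodes the decay factor tristetraprolin. Its RNA level in DMSO was 54.9, 30.4, 30.9 and 17.4 CPM, in LPS it was 898, 669.5, 853 and 704, and in LPS+TM7nox it was 444, 484, 498 and 426. All LPS libraries lay far above all DMSO libraries, and each LPS+TM7nox library lay below each LPS library. The rise with LPS was a log2 fold change of 4.53 ± 0.3, with an edgeR FDR of 4.66e-08, and 1.57% of genes tested rose more. With TM7nox the log2 change was −0.75 ± 0.26, which missed the threshold with an edgeR FDR of 0.0715. In that comparison the groups did not overlap, the value was lower in 4 of 4 same-numbered pairs, and the FDR was 0.0159 with the replicate block and 0.028 with DESeq2. Ifit2, Tor1aip1 and Ifi209 had RNA profiles most like that of Zfp36, with Pearson r of 0.995, 0.995 and 0.994 over 12 libraries that share the same LPS contrast.

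Recovered RNA showed the same rise of Zfp36. RIP libraries had 69.9, 48.1, 46.0 and 37.8 CPM in DMSO, 1109, 1311, 1328 and 937 in LPS, and 567, 999, 1010 and 865 in LPS+TM7nox. LPS and DMSO libraries did not overlap, whereas LPS and LPS+TM7nox libraries did. The log2 fold change was 4.51 ± 0.26 for LPS against DMSO (edgeR FDR 2.34e-09) and −0.49 ± 0.23 for LPS+TM7nox against LPS (edgeR FDR 0.152). The IgG libraries had 26.3 CPM in DMSO, 1002 in LPS and 511 in LPS+TM7nox, close to the levels in RNA.

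Zfp36l1 (ENSMUSG00000021127, chr12:80154528-80160006, minus strand), a paralog of Zfp36 with the same kind of zinc fingers, was the member that fell most with TM7nox. Its RNA level was 16.5, 10.3, 22.2 and 18.1 CPM in DMSO, 15.9, 7.64, 24.2 and 19.0 in LPS, and 7.0, 3.3, 7.21 and 7.73 in LPS+TM7nox. Replicate 2 was lowest in every treatment, and its LPS level lay inside the LPS+TM7nox range. Each LPS+TM7nox library was below the LPS library of the same number. TM7nox gave a log2 fold change of −1.40 ± 0.34 (edgeR FDR 0.0147), and the fit of replicates 1 and 2 alone gave −1.21 with an edgeR FDR of 0.36. LPS alone left a difference of −0.04 ± 0.34 (edgeR FDR 0.936). In RIP, levels were 120, 108, 242 and 169 CPM in LPS and 44.7, 60.3, 123 and 77.3 in LPS+TM7nox, with overlap between the groups. Its log2 fold change in RIP was −1.11 ± 0.31 with an edgeR FDR of 0.0243, lower in 4 of 4 pairs. This RIP call was lost when any of LPS replicates 3 or 4, or LPS+TM7nox replicates 1, 2 or 4, was left out, with the highest FDR at 0.0831.

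Zfp36l2 (ENSMUSG00000045817, chr17:84491132-84495382, minus strand), the third decay factor of the family, fell with LPS. Its RNA level was 102.8, 78.4, 73.0 and 75.2 CPM in DMSO, 59.5, 61.3, 34.4 and 40.8 in LPS, and 27.7, 62.3, 33.3 and 35.7 in LPS+TM7nox. All DMSO libraries were above all others, and the 2 LPS treatments overlapped. The log2 fold change for LPS against DMSO was −0.78 ± 0.25 (edgeR FDR 0.0237), and leaving out RNA DMSO replicate 1 or RNA LPS replicate 3 or 4 ended the call, as did fitting replicates 1 and 2 alone (−0.58, edgeR FDR 0.365). TM7nox with LPS against LPS gave −0.30 ± 0.25 (edgeR FDR 0.512). In RIP the LPS difference was −1.06 ± 0.33 (edgeR FDR 0.015), and the libraries ranged from 359 to 570 CPM in DMSO and from 125 to 336 in LPS. Within replicates 1 and 2 this RIP difference was −0.80 and not called (edgeR FDR 0.156), and within replicates 3 and 4 it was −1.56 (edgeR FDR 0.00274).

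Because a ratio within a library needs no scaling, the make-up of the ZFP36 family was also compared as shares of its summed CPM per kb. In RNA from DMSO, Zfp36l2 made up 56.8% ± 5.35 of the family, Zfp36 29.3% ± 7.46 and Zfp36l1 13.9% ± 4.97 (SD, n = 4). In LPS, Zfp36 made up 93.8% ± 0.845, and in LPS+TM7nox 92.9% ± 1.65. The Zfp36 share was 19.4 to 37.5% over the DMSO libraries and at least 90.7% in each of the 8 libraries with LPS. The ratio of Elavl1 to Zfp36, again per kb, was 0.993 ± 0.357 in DMSO, 0.0465 ± 0.0111 in LPS and 0.0653 ± 0.00748 in LPS+TM7nox. The last 2 ranges, 0.0359 to 0.0621 and 0.056 to 0.0726, overlapped, and the ratio was higher in LPS+TM7nox in 4 of 4 same-numbered pairs.

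In RNA recovered with anti-HuR, Zfp36 was a smaller part of the family. It made up 9.62% ± 1.8 in DMSO, 79.0% ± 1.69 with LPS and 79.8% ± 2.23 with LPS+TM7nox (SD, n = 4). In IgG the Zfp36 shares were 34.4, 96.6 and 95.2% in the same order, near those of RNA. Zfp36l1 and Zfp36l2 together thus held more of the family in RIP than in RNA or IgG under each treatment, and RIP and RNA libraries did not overlap in this share.

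**Figure D2:**
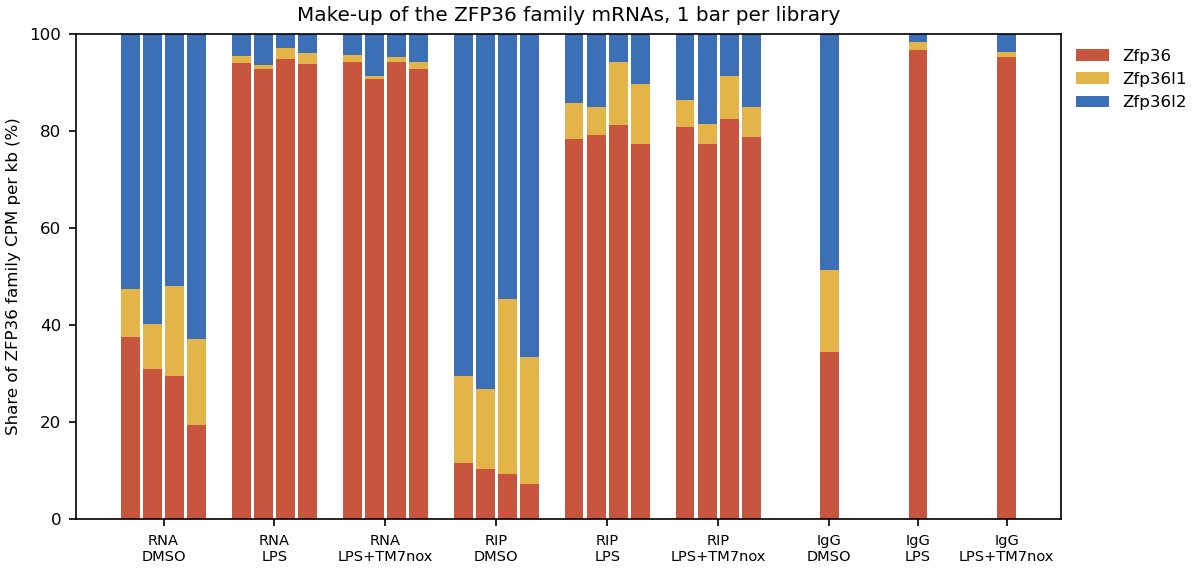
Share of Zfp36 (red), Zfp36l1 (yellow) and Zfp36l2 (blue) in the summed CPM per kb of the 3 genes, in percent, with 1 stacked bar per library (replicates 1 to 4 from left to right, and replicate 3 alone for IgG). Zfp36 takes 19.4 to 37.5% in RNA from DMSO and at least 90.7% in RNA with LPS, and in RIP it takes 7.28 to 11.5% in DMSO and 77.3 to 82.5% with LPS.

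Khsrp (ENSMUSG00000007670, chr17:57328051-57338587, minus strand) encodes KSRP, which recruits the exosome to AU-rich mRNAs. Its RNA level was 214, 198, 220.4 and 211 CPM in DMSO, 185, 162, 166 and 164 in LPS, and 183, 159, 152 and 143 in LPS+TM7nox. Every DMSO library lay above every other library. With LPS the log2 fold change was −0.35 ± 0.11 (edgeR FDR 0.0194), and LPS+TM7nox against LPS gave −0.09 ± 0.11 (edgeR FDR 0.697). The LPS call was lost in 6 of 20 alternatives, among them leaving out RNA DMSO replicate 3 or RNA LPS replicate 2, 3 or 4, and the highest FDR was 0.541. In RIP, Khsrp stood at 2154 to 2885 CPM in DMSO, 2414 to 2906 with LPS and 2812 to 4646 with LPS+TM7nox. None of these RIP differences passed the test, with log2 values of 0.07 ± 0.21 for LPS against DMSO, 0.38 ± 0.21 for LPS+TM7nox against LPS and 0.45 ± 0.21 for LPS+TM7nox against DMSO. The last had an edgeR FDR of 0.0872, and 0.0482 with the replicate block.

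Hnrnpd (ENSMUSG00000000568, chr5:100103794-100127029, minus strand) encodes AUF1. It rose in RNA with LPS and fell when TM7nox was added, with 100.7, 97.1, 81.9 and 103 CPM in DMSO, 123, 109, 125 and 134 in LPS, and 76.1, 86.3, 85.8 and 95.8 in LPS+TM7nox. The LPS libraries were the highest and overlapped with neither other group. The log2 fold changes were 0.33 ± 0.11 (edgeR FDR 0.0326) with LPS and −0.51 ± 0.11 (edgeR FDR 0.00828) with TM7nox. The first call was lost in 9 of 20 alternatives, among them leaving out RNA DMSO replicate 2 or 3 or RNA LPS replicate 1, 3 or 4, and the second in 1 of 20. In RIP, levels were 62.0 to 84.9 CPM in DMSO, 68.1 to 110 with LPS and 59.3 to 95.8 with LPS+TM7nox, with differences of 0.18 ± 0.18 and −0.15 ± 0.18 that did not pass.

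Celf1 (ENSMUSG00000005506, chr2:90770584-90849842, plus strand) encodes a protein that binds GU-rich and AU-rich elements and promotes loss of the poly(A) tail. RNA libraries had 59.4, 70.6, 73.2 and 63.8 CPM in DMSO, 79.5, 93.0, 94.7 and 98.3 in LPS, and 61.4, 79.0, 88.5 and 84.8 in LPS+TM7nox. LPS and DMSO libraries did not overlap, and LPS+TM7nox lay across both. The rise with LPS was 0.42 ± 0.12 on the log2 scale (edgeR FDR 0.0132, lost in 2 of 20 alternatives), and the difference with TM7nox was −0.22 ± 0.12 (edgeR FDR 0.292). In RIP, Celf1 was at 732 to 854 CPM in DMSO, 945 to 1144 with LPS and 907 to 1413 with LPS+TM7nox. The RIP rise of 0.41 ± 0.18 with LPS had an edgeR FDR of 0.0781, and 0.0228 with the replicate block.

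Tia1 (ENSMUSG00000071337, chr6:86381127-86410387, plus strand) and Tial1 (ENSMUSG00000030846, chr7:128040253-128063441, minus strand) encode the paralogs TIA1 and TIAR. Tia1 in RNA was at 18, 17.4, 15.6 and 13.5 CPM in DMSO, 10.7, 12.9, 10.8 and 12.8 in LPS, and 10.8, 9.91, 10.4 and 9.86 in LPS+TM7nox. Both groups with LPS lay below DMSO without overlap, and the log2 fold change for LPS was −0.48 ± 0.14 (edgeR FDR 0.0115, lost in 3 of 20 alternatives). In RIP it fell from 40.5, 48.0, 41.1 and 31.9 CPM in DMSO to 26.9, 26.6, 22.4 and 17.8 in LPS, a log2 fold change of −0.81 ± 0.19 (edgeR FDR 0.00267). Tial1 in RNA was at 42.6, 44.7, 45.2 and 39.7 CPM in DMSO, 39.4, 38.3, 39.7 and 39.4 in LPS, and 27.7, 38.8, 39.1 and 39.1 in LPS+TM7nox. Its RNA groups were close, with a log2 difference of −0.17 ± 0.12 for LPS (edgeR FDR 0.302). LPS+TM7nox against DMSO gave −0.28 ± 0.12 for Tial1 in RNA, with an edgeR FDR of 0.0737, and 0.0477 with the block. In RIP, Tial1 was at 253, 297, 266 and 236 CPM in DMSO, 157, 208, 134 and 116 in LPS, and 179, 233, 123 and 115 in LPS+TM7nox. LPS against DMSO in RIP gave −0.80 ± 0.24 (edgeR FDR 0.0121), with every LPS library below every DMSO library. This RIP call of Tial1 was lost in 1 of 20 alternatives, replicates 1 and 2 only (edgeR FDR 0.111). Adding TM7nox moved neither gene past the test, in RNA or in RIP. Gm44790 overlaps exons of Tia1 on the same strand, and genes on the other strand overlap exons of Tial1, Khsrp, Hnrnpd, Zfp36l2 and Zfp36.

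Counted over the 9 members in RIP, LPS against DMSO called 1 higher (Zfp36) and 3 lower (Zfp36l2, Tia1 and Tial1), where 23.5% of all genes tested were higher and 21.2% lower. LPS+TM7nox against LPS called none higher and 1 lower (Zfp36l1), where 8.64% of genes were higher and 7.61% lower. LPS+TM7nox against DMSO called Zfp36 and Celf1 higher and Zfp36l1, Zfp36l2, Tia1 and Tial1 lower, where 25.1% of genes were higher and 23.1% lower. With the replicate block 8 members were called, adding Elavl1 and Khsrp as higher, where 4333 of all 13614 genes were higher and 4076 lower. Celf1, at 0.53 ± 0.18, was called in 10 of 20 alternatives, lost its call without RIP DMSO replicate 1, 2 or 3 or RIP LPS+TM7nox replicate 2 or 4, and turned to −0.14 with library sizes alone, when the median of all genes stood at −0.63. The log2 fold changes of the 4 lower members in LPS+TM7nox against DMSO were −0.95, −1.26, −0.70 and −0.76, in the order named. The Zfp36l1 call was lost without RIP DMSO replicate 3 (edgeR FDR 0.0558), and that of Tial1 without RIP LPS+TM7nox replicate 3 (0.0556) or with replicates 1 and 2 only (0.18).

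**Figure D3:**
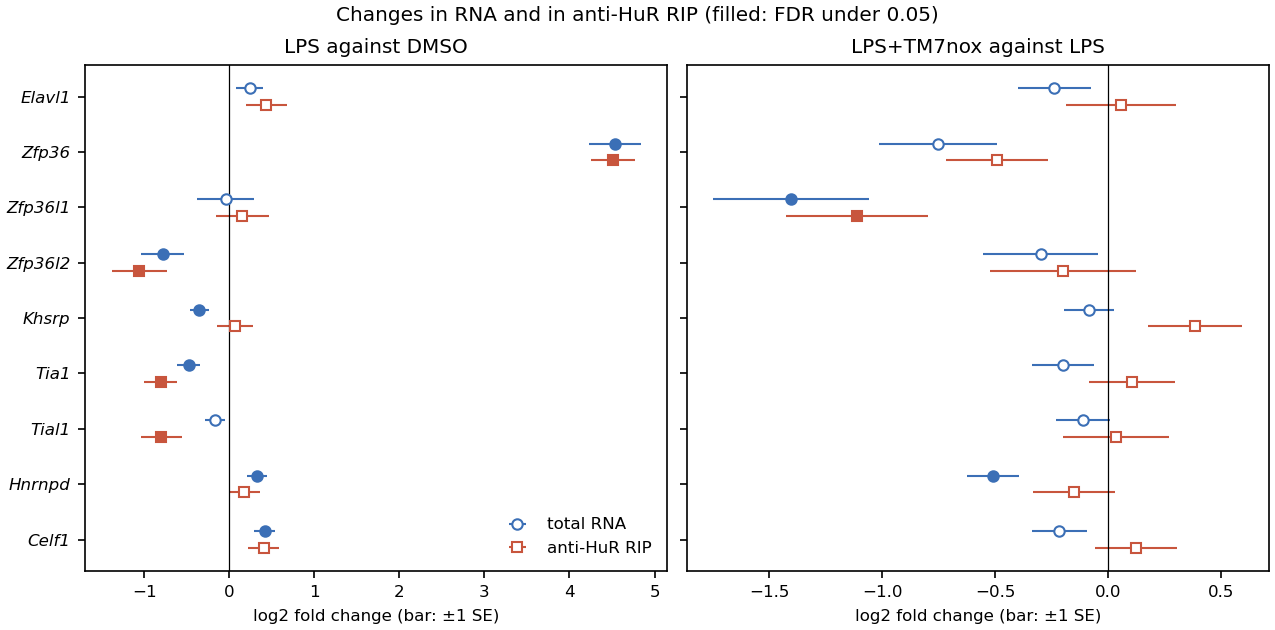
Log2 fold changes of the 9 members for LPS against DMSO (left) and LPS+TM7nox against LPS (right), in total RNA (blue circles) and in anti-HuR RIP (red squares). Bars are 1 SE from edgeR's fit of the 12 libraries of each assay. Filled points have an edgeR FDR under 0.05, and Zfp36 stands apart on the left at 4.53 in RNA and 4.51 in RIP, while Zfp36l1 is lowest on the right at −1.40 and −1.11.

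Recovery with anti-HuR was then compared with total RNA of the same treatment. The ratio of RIP to RNA has no absolute zero, because the scaling (TMM) places the typical gene near a log2 ratio of 0. In DMSO, 8 of the 9 members were higher in RIP than in RNA, where 37% of all 14311 genes tested were higher and 33.4% lower. The log2 ratio was 5.00 ± 0.25 for Elavl1, which 1.54% of genes exceeded. It was 3.73 ± 0.18 for Khsrp, 3.66 ± 0.19 for Celf1 and 3.18 ± 0.37 for Zfp36l1. Tial1 (2.73 ± 0.22), Zfp36l2 (2.62 ± 0.32) and Tia1 (1.45 ± 0.17) followed. Khsrp and Celf1, and Tial1 and Zfp36l2, differed by less than their SEs.

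Zfp36 and Hnrnpd were the members least recovered. Zfp36 had a log2 ratio of 0.76 ± 0.23 in DMSO (edgeR FDR 0.00535), and its RIP and RNA libraries overlapped. The call was lost in 2 of 32 alternatives, replicates 1 and 2 only and library sizes alone. With library sizes alone as the scaling, the Zfp36 ratio changed sign to −0.09, and the median of all genes moved to −0.72, so that Zfp36 stayed 0.63 above the median. Hnrnpd had −0.29 ± 0.15 in DMSO (edgeR FDR 0.1, and 0.032 with the replicate block), higher in RIP in only 1 of 4 same-numbered pairs.

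In both other treatments, whose libraries are separate from those of DMSO, the members kept this order except that Zfp36l2 stood above Tial1. In LPS, the ratio was higher for the same 8 members and lower for Hnrnpd (−0.57 ± 0.15, edgeR FDR 0.00251), where 32.9% of genes were higher and 30.8% lower. In LPS+TM7nox it was higher for those 8 and not called for Hnrnpd (−0.19 ± 0.15), where 35.2% of genes were higher and 34.8% lower. Elavl1 had 5.07 ± 0.25 in LPS and 5.38 ± 0.25 in LPS+TM7nox, and Khsrp had 4.03 ± 0.19 and 4.51 ± 0.19. Zfp36 had 0.59 ± 0.23 and 0.86 ± 0.23, which became −0.44 and −0.15 with library sizes alone, when the medians of all genes stood at −1.06 and −1.07. Its call in LPS+TM7nox was lost in 2 of 32 alternatives, library sizes alone and replicates 1 and 2 only. The Zfp36 call in LPS (edgeR FDR 0.0273) was lost in 8 of 32 alternatives, among them upper quartile scaling (0.0729), each pair of replicate numbers alone, and leaving out RNA LPS replicate 2 or 4 or RIP LPS replicate 2 or 3. With library sizes alone, Tia1 went from 0.99 ± 0.17 to −0.01 in LPS, and from 1.32 ± 0.17 to 0.34 in LPS+TM7nox, where its call was lost (edgeR FDR 0.103).

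**Figure D4:**
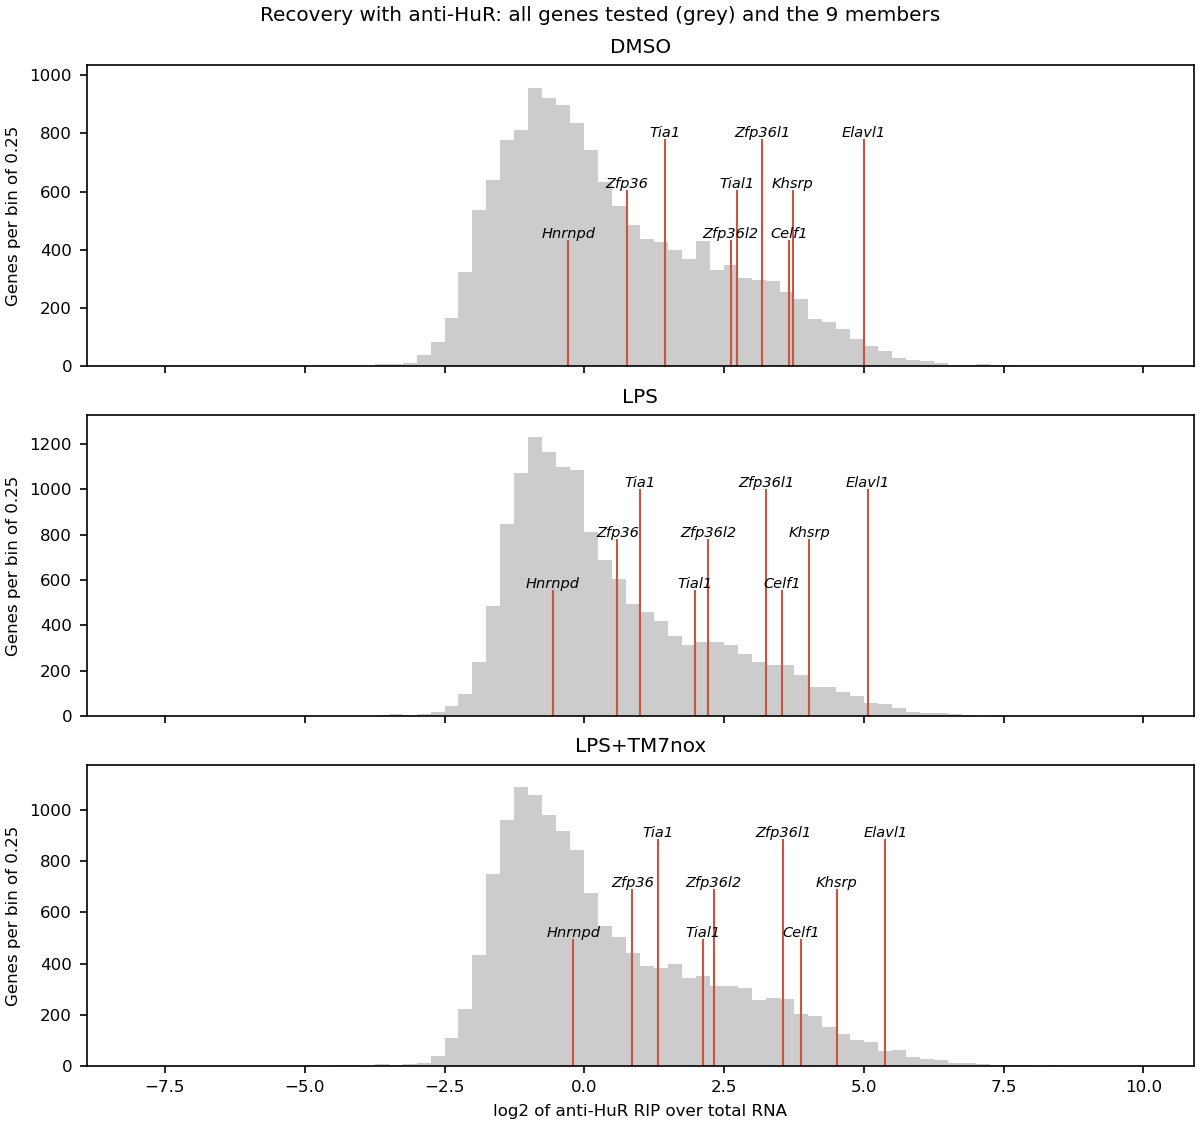
Number of genes (grey bars, bins of 0.25) by log2 of anti-HuR RIP over total RNA in DMSO, LPS and LPS+TM7nox, with the 9 members as red lines whose heights carry no value. Elavl1 is the rightmost member in each panel at 5.00, 5.07 and 5.38, and Hnrnpd the leftmost at −0.29, −0.57 and −0.19.

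Against the IgG libraries, fitted over all treatments together, the same 8 members were higher with anti-HuR, where 33.8% of 14973 genes were higher and 34.2% lower. The log2 fold change was 5.45 ± 0.31 for Elavl1, 4.17 ± 0.27 for Khsrp, 3.71 ± 0.22 for Celf1, 3.20 ± 0.34 for Zfp36l1 and 3.11 ± 0.35 for Zfp36l2. With the replicate block, Zfp36l1 was at 3.76 and Zfp36l2 at 2.49. Tial1 (2.31 ± 0.26) and Tia1 (1.28 ± 0.18) came next, and with library sizes alone Tia1 was at 0.26 and no longer called (edgeR FDR 0.218). Zfp36 was at 0.59 ± 0.22 (edgeR FDR 0.0217), which leaving out the IgG library of DMSO or of LPS+TM7nox took past the threshold. Library sizes alone turned Zfp36 to −0.45, when the median of all genes stood at −1.02. Hnrnpd was at −0.28 ± 0.15 (edgeR FDR 0.112), and at −0.015 with the replicate block (edgeR FDR 0.935). IgG over RNA of replicate 3 ranged from a ratio of 0.661 (Zfp36l1 in DMSO) to 1.18 (Zfp36 in LPS) over the 9 members and 3 treatments, so IgG recovery of each member was near its level in RNA. All IgG libraries are replicate 3, 1 per treatment.

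Whether recovery itself changed with treatment was tested as an interaction of assay (RIP or RNA) and treatment. No member was called by edgeR's test for LPS against DMSO or for LPS+TM7nox against LPS, and 0.0419% and 0.00699% of all genes were called, which are 6 genes and 1 gene. DESeq2 and the fit with the replicate block called 0 members in both as well. In simulated counts, edgeR's test for LPS recovered 11% of 100 genes given a log2 change of 1 and 63% of 100 given 2. Changes of such size can thus go uncalled, and the absence of calls does not show that recovery stayed the same. Among the 9 members, Tial1 had the lowest unadjusted p of edgeR's test for LPS (0.0157), at −0.75 ± 0.29 with an edgeR FDR of 0.583. For TM7nox it was Khsrp (unadjusted p of edgeR's test 0.0456), at 0.49 ± 0.23 with an edgeR FDR of 0.871. The Tial1 value was −0.55 within replicates 1 and 2 and −1.0 within replicates 3 and 4, with edgeR FDRs of 1 and 0.0859. Elavl1 changed by 0.07 ± 0.29 with LPS and 0.31 ± 0.29 with TM7nox, and Zfp36 by −0.17 ± 0.33 and 0.27 ± 0.32. For TM7nox all 9 values were above 0, from 0.10 (Zfp36l2) to 0.49, next to a median of 0.00 over all genes. These 9 share the same libraries.

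The U-rich matches shown above were set beside recovery in DMSO. Over all 10980 coding genes, the median log2 RIP over RNA was −0.72 for 3′ UTRs with no TTTTTTT, 0.09 with 1 to 4, 0.86 with 5 to 9 and 1.99 with 10 or more. The median length of the 3′ UTR rose over the same bins from 723 to 3091 bases. With ATTTA the medians ran from −0.80 with none to 1.27 with 10 or more, and lengths from 434 to 4463 bases. Spearman's rho between recovery and the length of the 3′ UTR was 0.37 across all genes and 0.233 across the 9 members, and leaving out each member in turn gave −0.0952 (without Elavl1) to 0.429.

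Most members lay above the median of their bin, and Hnrnpd did not. Elavl1, with 17 matches to TTTTTTT, exceeded 97.7% of the 1424 genes with 10 or more. Khsrp has 1 ATTTA, the one in the window at chr17:57328592-57328621, and exceeded 97.1% of the 3400 genes with 1 or 2, while among genes with 10 or more TTTTTTT it exceeded 85.8%. Zfp36, with no TTTTTTT, exceeded 86.8% of the 5717 genes without one. Hnrnpd, with 10 TTTTTTT and 17 ATTTA, exceeded 11.9% and 16.2% of the genes in those bins. Across the 9 members, Spearman's rho between recovery and the number of matches was 0.633 for TTTTTTT and 0.0921 for ATTTA, and across all genes it was 0.494 and 0.36. Leaving out each member in turn, a check added after the values were seen, gave 0.571 to 0.738 for TTTTTTT and −0.299 to 0.371 for ATTTA. For the share of T in the 3′ UTR, the 9 members gave −0.8 where all genes gave 0.274. All these values share the same libraries and differ in transcript length, and 9 points support no test.

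**Figure D5:**
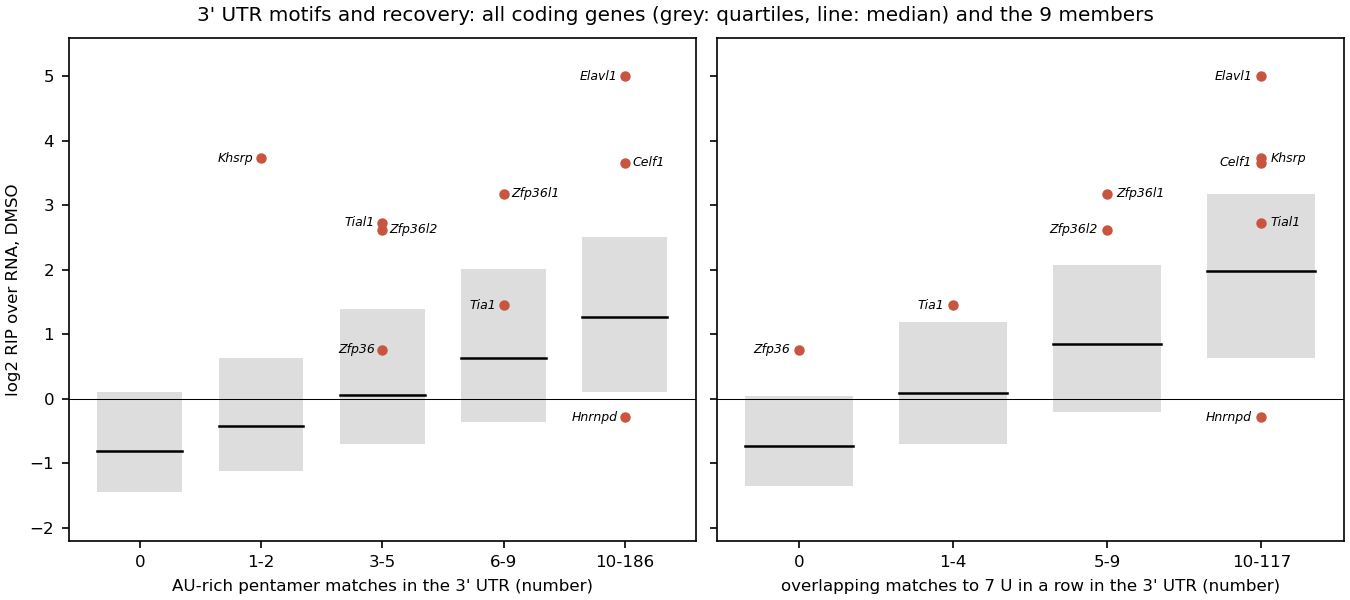
Log2 RIP over RNA in DMSO by the number of AU-rich pentamer matches (left) and of overlapping matches to 7 U in a row (right) in the 3′ UTR. Grey bars are the quartile range and black lines the median of all coding genes in a bin, red points are the 9 members, and Hnrnpd at −0.29 lies under the lower quartile of its bin on both sides.

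Other proteins and targets of the same pathway were taken from 4 lists. In RNA, 20.2% of all genes rose and 21.7% fell with LPS, and 7.37% rose and 6.4% fell with TM7nox. Among other AU-rich or U-rich binding proteins, 1 of 8 tested rose with LPS in RNA (Fubp1, 0.71 ± 0.12 log2, edgeR FDR 0.000226) and none fell. With TM7nox, 2 of those 8 fell: Celf2 (−0.60 ± 0.18) and Ptbp1 (−0.49 ± 0.12), the latter a splicing regulator. Their median was 0.20 for LPS, against −0.04 for all genes, and −0.35 for TM7nox, against 0.00. Among decay enzymes and adaptors, 6 of 30 rose with LPS and 9 fell, with a median of −0.14. The 5′ exonuclease Xrn1 (0.93 ± 0.16) and the helicase Ddx6 (0.80 ± 0.12) rose most, while the exosome subunits Exosc2 (−0.83 ± 0.15) and Exosc8 (−0.79 ± 0.12) fell most. Only Cnot8 of this list was called with TM7nox (0.37 ± 0.1, edgeR FDR 0.0224), a deadenylase subunit.

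Kinases, modifiers and transport partners of these proteins numbered 16 tested, of which 6 were higher and 6 lower with LPS, next to 20.2% and 21.7% of all genes. Mapkapk2, the kinase that phosphorylates tristetraprolin, rose by 1.63 ± 0.2 on the log2 scale, from 237 ± 53.2 to 749.5 ± 147 CPM (SD, n = 4). Prkcd rose by 1.27 ± 0.14, Chek2 changed by −2.58 ± 0.27 and the exporter Xpo1 by −0.80 ± 0.14. With TM7nox 4 of the 16 fell and none rose, next to 6.4% and 7.37% of all genes, led by Cdk1 (−1.07 ± 0.22) and Prkcd (−0.80 ± 0.14). Of 19 tested mRNAs known for AU-rich 3′ UTRs, 6 (Csf2, Ifnb1, Il10, Il1a, Il1b and Il6) did not reach the level of the low-count filter in all 4 DMSO libraries and were tested through the libraries with LPS, so their rise is no separate support. Of the other 13, 11 rose with LPS and none fell, a split made after the values were seen. Il1b went from 0.706 ± 0.837 to 1136 ± 309 CPM, and Csf2, with 0 counts over the DMSO group, was at least 324-fold higher against a floor of 3 counts over that group. With TM7nox, 2 of the 19 rose, Cxcl2 (1.62 ± 0.34) and Vegfa (1.43 ± 0.21), and 5 fell, led by Il1a (−1.94 ± 0.33) and Il1b (−1.83 ± 0.45).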

How the data were processed

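The authors deposited raw counts, whole numbers of reads per gene for 55483 mouse genes in 27 libraries with no normalization. The submitters' processing notes name FastQC 0.11.9, STAR, HTSeq, DESeq2 and the build GRCm39, while the sources used here do not give the strand setting or the annotation release. Kits and treatments are from the labels' protocols. Reads carry no stated molecular identifiers.

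Counts were tested with edgeR 4.0.16 (TMM, filterByExpr with a minimum count of 10, two-sided quasi-likelihood F test, Benjamini-Hochberg over all genes tested, called under 0.05). The 12 RNA libraries, the 12 RIP libraries, both together (RIP over RNA and interactions) and RIP with IgG (treatment as covariate) were fitted separately. The SE of a log2 fold change is its absolute value over the square root of the F statistic of that test. CPM are on 1 TMM scale over 27 libraries, and CPM per kb use the canonical transcript. Gene models, coordinates and 3′ UTRs are from GENCODE M39 on GRCm39, where 93.2% of identifiers matched. Scripts were tested on simulated data.

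The members and lists were chosen with earlier results of these data known. Named list genes are the called genes with the largest change, at most 2 per direction, in RNA. Profile likeness is the highest Pearson r over 12 RNA libraries. Same-numbered libraries deviated together, by correlations of 0.194 to 0.449 in RNA and 0.262 to 0.543 in RIP, and of 0.21 to 0.402 between RIP and RNA, so the replicate number was taken to pair them and the block is given beside each result whose call it changes. Alternatives were DESeq2 1.42.0, other scalings, no filter, the block, each pair of replicate numbers alone and leaving out each library.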

Additional observations from a re-analysis of the deposited data

Results flagged for a closer look

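A single library stood apart from the other 3 of its group, by Dixon's test at the 95% level, in 2 of 54 groups of 4 libraries tested, where chance flags about 1 in 20. Zfp36l1 in RNA from LPS+TM7nox was lowest in replicate 2, at 3.3 CPM against 7.0 to 7.73 CPM in the others. Tial1 in RNA from LPS+TM7nox was lowest in replicate 1, at 27.7 CPM against 38.8 to 39.1 CPM. Without these libraries the log2 fold change of LPS+TM7nox against LPS was −1.19 for Zfp36l1 and −0.01 for Tial1, next to −1.40 and −0.11 with them.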

How the results depend on the processing

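Of 2718 values of single members under alternatives, 2609 kept their direction and their side of the threshold or were called in neither setting, 63 lost a call (18 of them with replicates 1 and 2 only), 37 gained one and 9 changed sign with a call in either setting. Among the 2609, 72 values called in neither setting changed sign, from at most 0.49 in absolute log2. These came under DESeq2, no filter, other scalings, subsets and left-out libraries. The 9 with a call came with library sizes alone as the scaling, which moved the median log2 fold change of all genes to −0.32 for LPS against DMSO in RNA, −0.63 in RIP, −0.72 to −1.07 for RIP over RNA and −1.02 against IgG. The 9 were, in RIP, Khsrp (−0.56) and Hnrnpd (−0.46) for LPS against DMSO and Hnrnpd (−0.62) and Celf1 (−0.14) for LPS+TM7nox against DMSO. For RIP over RNA they were Zfp36 in DMSO (−0.09), LPS (−0.44) and LPS+TM7nox (−0.15) and Tia1 in LPS (−0.01), and against IgG Zfp36 (−0.45). Members called in RNA for LPS against DMSO went from 6 to 3 with no filter on low counts and to 1 with replicates 1 and 2 only, which also left 0 for LPS+TM7nox against LPS, 1 for LPS+TM7nox against DMSO and, in RIP, 2 for LPS against DMSO. Replicates 3 and 4 only, also 2 libraries per group, gave 6, 3, 6 and 4 members in the same comparisons. The shallowest library is in the former subset. Over all genes, LPS against DMSO in RNA called 2500 higher and 2690 lower of 12369 in the main fit. With no filter it called 2735 and 2534 of 30529. It called 1048 and 620 of 12468 with replicates 1 and 2 only, and 3674 and 3675 of 12525 with replicates 3 and 4 only. In these subsets LPS+TM7nox called 98 and 70, then 1797 and 1692, against LPS, and 1314 and 932, then 4152 and 3773, against DMSO. LPS against DMSO in RIP called 1714 and 1678, then 2768 and 2769. The replicate block, which pairs libraries of 1 number, raised LPS+TM7nox against LPS in RNA from 2 members to 4. Over all genes, calls there went from 912 higher and 792 lower to 1526 and 1565. Leaving out single libraries gave 3 to 6 members for LPS against DMSO in RNA, lowest without RNA LPS replicate 3 or 4, and 0 to 1 for LPS+TM7nox against LPS in RIP. Shares over all genes are not given here for the fits without single libraries. The causes were not tested. Counts were lowest for Zfp36l1 and Tia1, at 77 and 85 in single libraries, and the part of depth in their spread was not tested.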
